A study of Homo sapiens with 18 samples.

Results

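Death receptors are cell-surface proteins of the TNF receptor superfamily, and the initiator caspases are the proteases that they switch on. The genes described are 9 members of this pathway, chosen by symbol: FAS, TNFRSF10A, TNFRSF10B, TNFRSF10C, TNFRSF10D, FADD, CASP8, CASP10 and CFLAR. A value could be given for 8 of these 9 genes, out of 18417 genes measured in the series. The probe set of TNFRSF10C, a decoy receptor for TRAIL that is anchored in the membrane without a death domain, also carries a second symbol, and no value is given for that gene.

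RNA levels were read as log2 intensities on 18 Affymetrix Gene arrays, whose probe sets are spread over the transcript. The cells were NCI-H1299, a line from a non-small cell lung carcinoma that has no p53 of its own, and RNA was taken 40 hours after transient transfection. Every group carried the plasmid pIRES-2EGFP, which encodes green fluorescent protein, and fluorescent cells were sorted before RNA was prepared. There are 2 sets of 9 arrays with separate normalization, so a level in one set is not comparable with a level in the other.

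The first set holds ΔNp53:WTp53, WTp53 (wild-type p53 alone) and empty vector, with 3 arrays each from experiments 0, 4 and 5. ΔNp53 is a naturally occurring shorter form of p53 that lacks part of the N-terminal transactivation region, and the construct ΔNp53:WTp53 combines it with WTp53. The second set holds tethered WTp53, WTp53 and empty vector, with 3 arrays each from experiments d, e and f. Titles and descriptions name the tethered construct, whereas the transfection field of the same arrays reads ΔNp53:WTp53; the titles were followed. Experiments 0, 4 and 5 are described as independent transfections. Nothing in the labels says so for d, e and f, and p-values of the second set therefore measure only the spread between these arrays, which may be technical. All groups are transient overexpression in 1 line without endogenous p53, and the level of p53 protein per cell is not known from the arrays. Each group is bulk RNA, in which fewer cells of a kind and less RNA per cell cannot be told apart.

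In the extrinsic pathway of apoptosis a ligand such as FAS ligand or TRAIL gathers its receptors, and the clustered death domains recruit the adaptor FADD. FADD in turn binds the initiator caspases 8 and 10, which activate each other in this complex and then cleave effector caspases and the BCL2-family protein BID. CFLAR, a caspase-like protein without protease activity, joins the same complex and can hold the initiator caspases in check. Several death receptor genes, FAS and TNFRSF10B among them, are textbook transcriptional targets of p53.

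RefSeq windows of 250 bases before a listed transcript start (build GRCh38.p14) were available for 4 members and 11 starts, namely 3 of CASP8, 4 of CFLAR, 1 of FADD and 3 of FAS. Whole p53 sites were not searched. The p53 half-site of 10 bases, called the motif here, was searched in each window and reads as the same pattern on both strands. It was found in 2 of the 11 windows, against 1957 of the 35116 windows of the whole table (5.6%). The windows are shown because FAS and CFLAR rose, CASP8 fell and FADD passed no test against empty vector, as described below by their values. Capitals mark the motif, and the windows of CFLAR and FADD hold none.
FAS, start 3, chr10:88991181-88991430, plus strand: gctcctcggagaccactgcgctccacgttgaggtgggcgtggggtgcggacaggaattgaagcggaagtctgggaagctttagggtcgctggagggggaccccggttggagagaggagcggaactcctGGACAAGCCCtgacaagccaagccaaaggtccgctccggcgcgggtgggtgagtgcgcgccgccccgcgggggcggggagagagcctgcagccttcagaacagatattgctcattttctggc
CASP8, start 2, chr2:201257785-201258034, plus strand: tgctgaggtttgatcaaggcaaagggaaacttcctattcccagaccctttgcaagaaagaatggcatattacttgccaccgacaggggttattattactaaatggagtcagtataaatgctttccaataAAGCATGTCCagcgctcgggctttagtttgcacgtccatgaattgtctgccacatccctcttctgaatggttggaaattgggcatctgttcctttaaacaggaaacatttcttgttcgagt
CFLAR, start 1, chr2:201118466-201118715, plus strand: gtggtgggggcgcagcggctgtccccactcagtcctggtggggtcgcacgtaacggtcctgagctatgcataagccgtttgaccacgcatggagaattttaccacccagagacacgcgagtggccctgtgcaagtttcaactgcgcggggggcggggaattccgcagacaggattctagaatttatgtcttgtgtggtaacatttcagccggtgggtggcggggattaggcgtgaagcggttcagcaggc
FADD, start 1, chr11:70203046-70203295, plus strand: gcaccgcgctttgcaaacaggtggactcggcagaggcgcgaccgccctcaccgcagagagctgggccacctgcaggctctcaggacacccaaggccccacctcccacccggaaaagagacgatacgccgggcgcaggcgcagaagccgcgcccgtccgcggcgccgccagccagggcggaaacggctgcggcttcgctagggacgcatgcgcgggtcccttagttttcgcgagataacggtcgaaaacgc
The motif of FAS began 122 bases before the third listed start of the gene, which lies 633 bases downstream of the first listed start. The motif of CASP8 began 121 bases before the second listed start, 24572 bases downstream of the first. These letters are a description of the windows; whether p53 binds there was not measured.

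Array medians were 4.89 to 4.97 among the first 9 arrays and 7.01 to 7.07 among the others. Correlations across genes between arrays of 1 group ran from 0.9830 to 0.9986. CDKN1A, the cell cycle inhibitor that is the standard p53 target, was 3.69 ± 0.26 higher with ΔNp53:WTp53 and 4.62 ± 0.26 higher with WTp53 than with vector on the log2 scale (± SE, as for every difference given), and 3.22 ± 0.06 and 3.13 ± 0.06 higher with tethered WTp53 and with WTp53 in the second set. All 5 of the line's own markers (KRT8, KRT18, KRT7, VIM and CDH2) lay above the median of all probe sets in both sets. Of the markers of other cells, 4 of 16 in the first set and 4 of 16 in the second lay above that median: CD79A, TYROBP and COL1A1 in both sets, SFTPC in the first and CD14 in the second. PTPRC, CD3E, DCN, PECAM1, VWF and NKX2-1 lay below it in both. Against vector in the first set, limma called SCGB1A1 (0.44 ± 0.11, adjusted p = 0.0129) higher with ΔNp53:WTp53, and SFTPC (1.33 ± 0.24, adjusted p = 0.00223), TYROBP (0.47 ± 0.10, adjusted p = 0.00457) and CD79A (0.28 ± 0.07, adjusted p = 0.0146) higher with WTp53. In the second set SFTPC (0.25 ± 0.07, limma adjusted p = 0.011) and SCGB1A1 (0.24 ± 0.09, limma adjusted p = 0.0433) were higher with tethered WTp53 and CD79A (0.38 ± 0.05, limma adjusted p = 1.07e-04) with WTp53, while CD14 differed from vector by −0.50 ± 0.08 with tethered WTp53 (limma adjusted p = 3.41e-04) and −0.33 ± 0.08 with WTp53 (limma adjusted p = 0.00809). The mean log2 level of 5 leukocyte markers was 4.21 to 4.36 with ΔNp53:WTp53, 4.53 to 4.54 with WTp53 and 4.24 to 4.38 with vector. That of the 5 lung epithelium markers was 4.11 to 4.61, 4.38 to 4.48 and 3.99 to 4.05 in the same groups. In the second set the leukocyte markers gave 6.50 to 6.64 with tethered WTp53, 6.64 to 6.72 with WTp53 and 6.63 to 6.69 with vector. The lung epithelium markers gave 6.55 to 6.60, 6.42 to 6.49 and 6.39 to 6.47 there, highest with tethered WTp53. Of the line's own markers CDH2 was called higher in every comparison. Against vector it rose by 1.15 ± 0.10 with ΔNp53:WTp53 and 0.73 ± 0.05 with tethered WTp53. KRT8 was called higher than vector with ΔNp53:WTp53 (0.86 ± 0.20), tethered WTp53 (0.60 ± 0.05) and WTp53 of the second set (0.49 ± 0.05). With that WTp53 so were KRT7 (0.25 ± 0.07) and VIM (0.21 ± 0.04), and VIM was also called higher with tethered WTp53 (0.14 ± 0.04). The part of all these markers in the results was not tested.

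Against empty vector the first question was which members respond to p53 at all. In the first set 5 of 8 members rose with ΔNp53:WTp53 and 0 fell, where 15.7% of all genes tested rose and 20.3% fell. With WTp53 5 of 8 rose and 1 fell, where 15.2% of all genes rose and 16.6% fell. The same 5 genes rose in both comparisons, namely the receptors FAS, TNFRSF10A, TNFRSF10B and TNFRSF10D and the inhibitor CFLAR. CFLAR is counted here by its brighter probe set. With the mean of a gene's probe sets 4 members rose in each of these comparisons. The median change of the 8 members was 0.88 with ΔNp53:WTp53, against 0.01 over all genes, and 0.73 with WTp53, against 0.02 over all genes. Each of these 5 had all 3 arrays with ΔNp53:WTp53 above all vector arrays, as did 21% of all genes, and all 3 with WTp53 above them, as did 24.4%. CASP8 and FADD lay wholly below vector with WTp53, as did 24.4% of all genes, and FADD did so with ΔNp53:WTp53, as did 24.6%. Both comparisons use the same vector arrays and are not independent of each other. Every call rests on limma with Benjamini-Hochberg adjustment over the 18417 genes and a threshold of 0.05, and on 3 arrays a group.

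In the second set 5 of 8 members rose with tethered WTp53 and 1 fell, where 21.6% of all genes rose and 26.2% fell. With WTp53 5 of 8 rose and 1 fell, where 17.9% of all genes rose and 18.9% fell. Those that rose were again the 4 receptors and CFLAR, and the gene that fell was CASP8. With the mean of a gene's probe sets 4 members rose with tethered WTp53 and 5 with WTp53. The median change of the members was 0.56 with tethered WTp53 and 0.34 with WTp53, against 0.00 and −0.02 over all genes. The 5 that rose had tethered arrays wholly above vector, as 24.2% of all genes did, and WTp53 arrays wholly above it, as 22.3% did; CASP8 lay wholly below vector with both, as 28.2% and 24.8% of all genes did. Here too the vector arrays are shared.

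**Figure D1:**
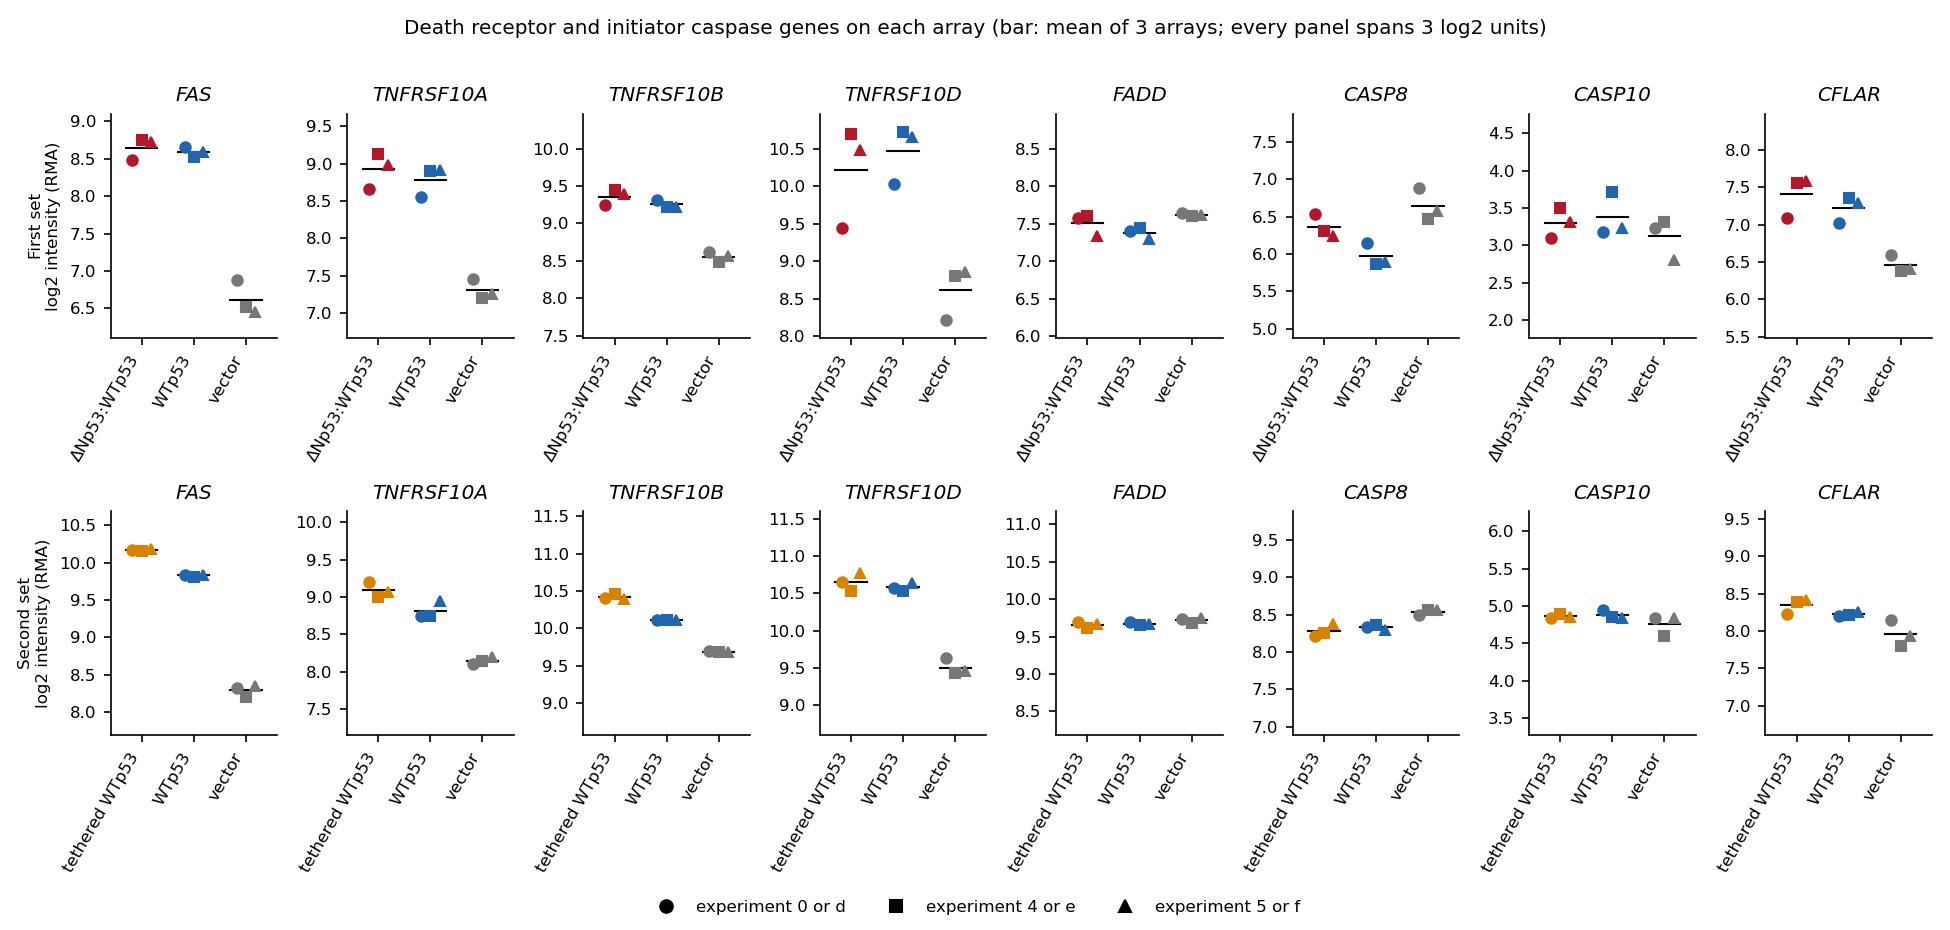
Log2 intensity of the 8 measured members on each array (vertical axis, RMA, each panel spanning 3 log2 units), in the first set (top row) and the second (bottom row), by group. Circles, squares and triangles are experiments 0 or d, 4 or e, and 5 or f, and bars are means of 3 arrays; in FAS, TNFRSF10A, TNFRSF10B and TNFRSF10D every array with p53 lies above every vector array of its set.

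FAS, the receptor of FAS ligand, had the largest change among the members in each of the 4 comparisons with vector. On the arrays of experiments 0, 4 and 5 it read 8.48, 8.75 and 8.72 with ΔNp53:WTp53, 8.66, 8.53 and 8.59 with WTp53, and 6.88, 6.52 and 6.45 with vector. The arrays with p53 of either kind lay far above the vector arrays and did not overlap with them. The change was 2.03 ± 0.13 with ΔNp53:WTp53 (4.09-fold, limma adjusted p = 8.56e-06) and 1.97 ± 0.13 with WTp53 (3.93-fold, limma adjusted p = 1.14e-05). On the arrays of experiments d, e and f FAS read 10.17, 10.15 and 10.18 with tethered WTp53, 9.84, 9.81 and 9.84 with WTp53, and 8.32, 8.20 and 8.35 with vector. The 3 groups formed 3 separate steps, with tethered WTp53 highest. Against vector the change was 1.88 ± 0.05 with tethered WTp53 (3.67-fold, limma adjusted p = 3.44e-10) and 1.54 ± 0.05 with WTp53 (2.91-fold, limma adjusted p = 3.59e-09). Its window with a motif is shown above with the other promoters.

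TNFRSF10A and TNFRSF10B are the receptors that carry the TRAIL signal into the cell through a death domain. TNFRSF10A read 8.66, 9.13 and 8.98 with ΔNp53:WTp53, 8.55, 8.90 and 8.91 with WTp53, and 7.46, 7.20 and 7.26 with vector. Both p53 groups were higher than vector in all 3 experiments and overlapped with each other. The rise was 1.61 ± 0.14 with ΔNp53:WTp53 (3.06-fold, limma adjusted p = 4.69e-05) and 1.48 ± 0.14 with WTp53 (2.78-fold, limma adjusted p = 8.37e-05). The second set gave 9.20, 9.0 and 9.07 with tethered WTp53, 8.74, 8.74 and 8.94 with WTp53, and 8.10, 8.15 and 8.20 with vector. No group overlapped with another. The rise was 0.94 ± 0.07 with tethered WTp53 (1.92-fold, limma adjusted p = 6.70e-07) and 0.66 ± 0.07 with WTp53 (1.58-fold, limma adjusted p = 2.12e-05).

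TNFRSF10B read 9.24, 9.45 and 9.39 with ΔNp53:WTp53, 9.32, 9.22 and 9.22 with WTp53, and 8.62, 8.48 and 8.57 with vector. The p53 groups again stood above vector on every array. The rise was 0.80 ± 0.09 with ΔNp53:WTp53 (1.75-fold, limma adjusted p = 1.23e-04) and 0.69 ± 0.09 with WTp53 (1.62-fold, limma adjusted p = 2.99e-04). The values of the second set were 10.41, 10.46 and 10.39 with tethered WTp53, 10.11 on all 3 arrays with WTp53, and 9.70, 9.69 and 9.68 with vector. The arrays of each group lay very close together, and the groups did not overlap. The rise was 0.73 ± 0.04 with tethered WTp53 (1.66-fold, limma adjusted p = 5.86e-08) and 0.42 ± 0.04 with WTp53 (1.34-fold, limma adjusted p = 7.80e-06), so of the 4 receptors TNFRSF10B changed least in each of the 4 comparisons.

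TNFRSF10D is a decoy that binds TRAIL but has a truncated death domain. It read 9.45, 10.70 and 10.49 with ΔNp53:WTp53, 10.03, 10.73 and 10.66 with WTp53, and 8.21, 8.80 and 8.85 with vector. In every group of the first set the array of experiment 0 was the lowest, while within each experiment both p53 groups stood above vector. The rise was 1.59 ± 0.32 with ΔNp53:WTp53 (3.02-fold, limma adjusted p = 0.0034) and 1.85 ± 0.32 with WTp53 (3.61-fold, limma adjusted p = 0.00164). Within experiments 0, 4 and 5 the change with WTp53 was 1.82, 1.93 and 1.80. Those of the second set were 10.65, 10.53 and 10.77 with tethered WTp53, 10.57, 10.53 and 10.64 with WTp53, and 9.63, 9.43 and 9.46 with vector. The p53 groups overlapped with each other and not with vector. The rise was 1.14 ± 0.07 with tethered WTp53 (2.21-fold, limma adjusted p = 2.15e-07) and 1.07 ± 0.07 with WTp53 (2.1-fold, limma adjusted p = 7.71e-07).

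**Figure D2:**
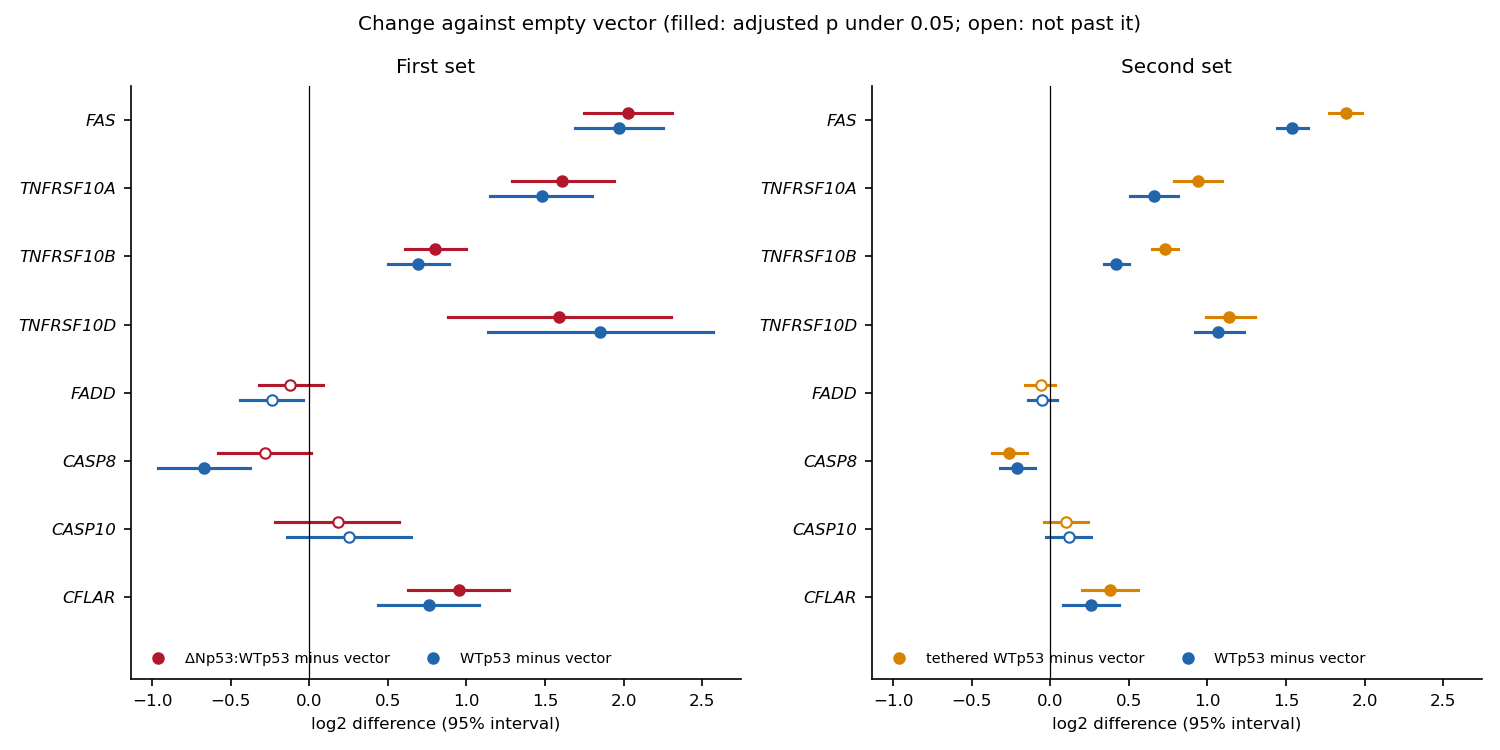
Difference from empty vector in log2 units (horizontal axis) for each member, for ΔNp53:WTp53 and WTp53 in the first set (left) and for tethered WTp53 and WTp53 in the second (right). Lines are 95% intervals of the limma fit of that set, and filled points passed an adjusted p of 0.05; the 4 receptors and CFLAR lie right of 0 in both sets, and CASP8 lies left of it.

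FADD, the adaptor, passed the test in none of the 6 comparisons. In the first set it read 7.58, 7.60 and 7.34 with ΔNp53:WTp53, 7.40, 7.44 and 7.30 with WTp53, and 7.64, 7.61 and 7.62 with vector. All 6 arrays with p53 lay below the vector arrays. The differences were −0.12 ± 0.09 with ΔNp53:WTp53 (limma adjusted p = 0.379) and −0.24 ± 0.09 with WTp53 (limma adjusted p = 0.0731). The difference with WTp53 passed in 4 alternative settings, with limma adjusted p from 0.00806 to 0.0446 there. All 9 arrays of the second set lay between 9.61 and 9.75. The differences from vector were −0.06 ± 0.04 with tethered WTp53 (limma adjusted p = 0.256) and −0.05 ± 0.04 with WTp53 (limma adjusted p = 0.404).

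CASP8, the main initiator caspase of the pathway, fell with WTp53 in both sets and with tethered WTp53. In the first set it read 6.53, 6.31 and 6.24 with ΔNp53:WTp53, 6.15, 5.87 and 5.90 with WTp53, and 6.88, 6.47 and 6.58 with vector. The WTp53 arrays were the lowest, the vector arrays the highest, and in each of the 3 experiments the ΔNp53:WTp53 array lay between the other two. CASP8 fell by 0.67 ± 0.13 with WTp53 (1.59-fold lower, limma adjusted p = 0.00342). With ΔNp53:WTp53 the difference was −0.28 ± 0.13 and did not pass (limma adjusted p = 0.128), and 1 array overlapped with the vector arrays. With the experiment as a block the same difference passed (limma adjusted p = 0.0252), as it did with all 18 arrays in 1 fit (limma adjusted p = 0.0304). The latter fit pools the spread of both sets, which was smaller in the second.

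On the second set CASP8 read 8.21, 8.26 and 8.37 with tethered WTp53, 8.33, 8.36 and 8.30 with WTp53, and 8.50, 8.56 and 8.56 with vector. The p53 groups overlapped with each other and lay below vector on every array. The fall against vector was −0.26 ± 0.05 with tethered WTp53 (1.2-fold lower, limma adjusted p = 9.39e-04) and −0.21 ± 0.05 with WTp53 (1.16-fold lower, limma adjusted p = 0.00547). With all 18 arrays in 1 fit neither fall passed (limma adjusted p = 0.0607 with tethered WTp53 and 0.185 with WTp53). The window of CASP8 that holds a motif belongs to its second listed start, and the arrays do not tell from which start the RNA came.

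CASP10, the related initiator caspase, had a low signal. Its mean over a set exceeded only 24.6% of all probe sets in the first set and 18% in the second. Its values ran from 3.10 to 3.50 with ΔNp53:WTp53, from 3.18 to 3.71 with WTp53 and from 2.81 to 3.32 with vector, so that the groups overlapped. With the second set's arrays the range was 4.84 to 4.89 with tethered WTp53, 4.84 to 4.94 with WTp53 and 4.60 to 4.84 with vector. None of its 6 comparisons passed the test, with limma adjusted p from 0.195 to 0.891. At a signal this low a change may not be visible on the array.

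CFLAR, the inhibitor, was measured by a pair of probe sets, of which the brighter was used. It read 7.09, 7.55 and 7.58 with ΔNp53:WTp53, 7.02, 7.35 and 7.29 with WTp53, and 6.59, 6.38 and 6.41 with vector. Every p53 array was above every vector array, by the least in experiment 0. The rise was 0.95 ± 0.14 with ΔNp53:WTp53 (1.93-fold, limma adjusted p = 7.75e-04) and 0.76 ± 0.14 with WTp53 (1.69-fold, limma adjusted p = 0.00277). The arrays of the second set read 8.23, 8.39 and 8.41 with tethered WTp53, 8.20, 8.21 and 8.26 with WTp53, and 8.15, 7.80 and 7.94 with vector. The vector array of experiment d came within a small distance of the p53 arrays. The rise was 0.38 ± 0.08 with tethered WTp53 (1.3-fold, limma adjusted p = 0.0023) and 0.26 ± 0.08 with WTp53 (1.2-fold, limma adjusted p = 0.0269). The rise with WTp53 in the second set lost its call in a fit of all 18 arrays (limma adjusted p = 0.171) and without any of 5 single arrays, namely vector e or f or WTp53 d, e or f (limma adjusted p from 0.0543 to 0.104).

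The dimmer probe set of CFLAR gave another picture. It read 4.66, 5.28 and 5.39 with ΔNp53:WTp53, 5.16, 5.48 and 4.94 with WTp53, and 5.27, 5.35 and 5.40 with vector. The groups overlapped, and the differences from vector were −0.23 ± 0.19 with ΔNp53:WTp53 (limma adjusted p = 0.408) and −0.15 ± 0.19 with WTp53 (limma adjusted p = 0.616). For experiments d, e and f it read 5.87, 6.06 and 6.08 with tethered WTp53, 6.52, 6.81 and 6.56 with WTp53, and 6.02, 6.14 and 6.25 with vector. Here the WTp53 arrays stood above both other groups. The difference was −0.63 ± 0.09 for tethered WTp53 against WTp53 (1.54-fold lower, limma adjusted p = 5.02e-04) and 0.49 ± 0.09 for WTp53 against vector (1.41-fold, limma adjusted p = 0.00115). With the mean of both probe sets the rises of CFLAR with ΔNp53:WTp53 and WTp53 in the first set and with tethered WTp53 in the second did not pass (limma adjusted p = 0.104, 0.174 and 0.143). Statements on CFLAR therefore hold for the brighter probe set, and which transcripts each probe set reads was not examined.

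**Figure D3:**
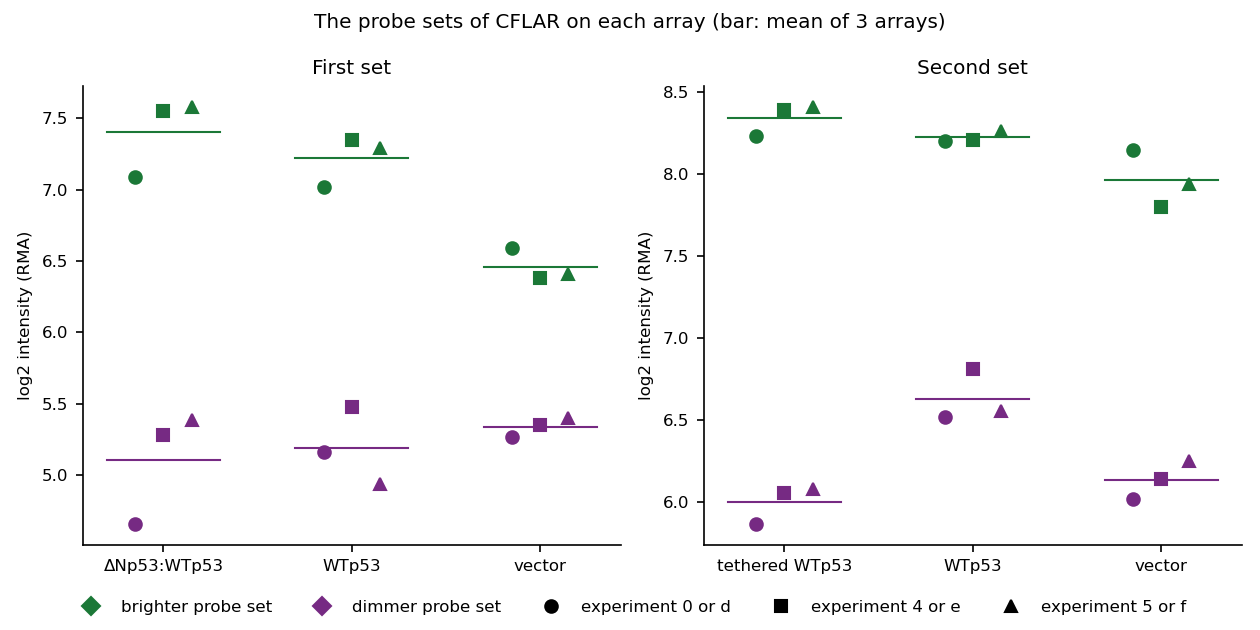
Log2 intensity (vertical axis, RMA) of both CFLAR probe sets on each array of the first set (left) and the second (right), by group. Circles, squares and triangles are experiments 0 or d, 4 or e, and 5 or f, and bars are means of 3 arrays; the brighter probe set is lowest with vector in both sets, while the dimmer one is highest with WTp53 in the second set.

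The second question was whether ΔNp53:WTp53 acts on these genes differently from WTp53 alone. For ΔNp53:WTp53 against WTp53 limma called 0 of the 8 members, where 1.56% of all genes rose and 0.88% fell. An unadjusted limma p under 0.05 was reached by 1 member, CASP8, and by 3308 of the 18417 genes. The median difference of the members was 0.12, against −0.01 over all genes. FAS differed by 0.06 ± 0.13, with a 95% interval from −0.22 to 0.34. For TNFRSF10A the difference was 0.14 ± 0.14 (interval −0.18 to 0.46), and for TNFRSF10B 0.11 ± 0.09 (interval −0.08 to 0.30). The interval of the decoy TNFRSF10D was the widest, −0.97 to 0.45 around −0.26 ± 0.32. Its sign turned without the ΔNp53:WTp53 array of experiment 0, to 0.12. These intervals do not show that both constructs act alike, and for TNFRSF10D they leave room for a change of nearly 1 log2 unit. They come from the fit without the experiment as a block, so the spread between experiments counts in them. Within experiment 0 TNFRSF10D differed by −0.58, and within the later experiments by −0.03 and −0.17. An interval with the block is not given.

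CASP8 was the member with the clearest separation between ΔNp53:WTp53 and WTp53. All 3 arrays with ΔNp53:WTp53 (6.53, 6.31 and 6.24) lay above all 3 with WTp53 (6.15, 5.87 and 5.90), which 9.78% of all genes also did. The difference was 0.39 ± 0.13 (1.31-fold, interval 0.09 to 0.68), and it did not pass (limma adjusted p = 0.159). Within the experiments it was 0.38, 0.44 and 0.34. With the experiment as a block it passed (limma adjusted p = 0.0402), and it also passed without experiment 0 (limma adjusted p = 0.028). It passed with all 18 arrays in 1 fit as well (limma adjusted p = 0.0183). That fit pools the spread of both sets, which was smaller in the second, and it called 2693 genes. The block raised the genes called in this comparison to 806, against 449 without it (2.44% of all genes), and the count moved between 54 (without the WTp53 array of experiment 4) and 2292 (without the ΔNp53:WTp53 array of experiment 0) when single arrays were left out.

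The third question was whether tethered WTp53 differs from WTp53. For tethered WTp53 against WTp53 3 of 8 members rose and 0 fell, where 14.9% of all genes rose and 17.5% fell. The 3 were the death receptors that signal, FAS, TNFRSF10A and TNFRSF10B. The median difference of the members was 0.10, against 0.02 over all genes. FAS was higher by 0.34 ± 0.05 (1.26-fold, limma adjusted p = 3.85e-04), and all 3 tethered arrays lay above all WTp53 arrays. TNFRSF10B was higher by 0.31 ± 0.04 (1.24-fold, limma adjusted p = 2.05e-04), again without overlap. TNFRSF10A was higher by 0.28 ± 0.07 (1.22-fold, limma adjusted p = 0.00874), also without overlap, but did not pass with all 18 arrays in 1 fit (limma adjusted p = 0.148). Of all genes 20.4% had tethered arrays that lay wholly above the WTp53 arrays.

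For the other 5 members the tethered and untethered groups were close. The decoy TNFRSF10D differed by 0.07 ± 0.07 (interval −0.09 to 0.23), and CASP8 by −0.05 ± 0.05 (interval −0.16 to 0.06). FADD differed by −0.01 ± 0.04 (interval −0.11 to 0.08) and CASP10 by −0.02 ± 0.06 (interval −0.16 to 0.13). The brighter probe set of CFLAR differed by 0.12 ± 0.08 (interval −0.06 to 0.30), whereas the dimmer one was lower with tethered WTp53, as given above.

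**Figure D4:**
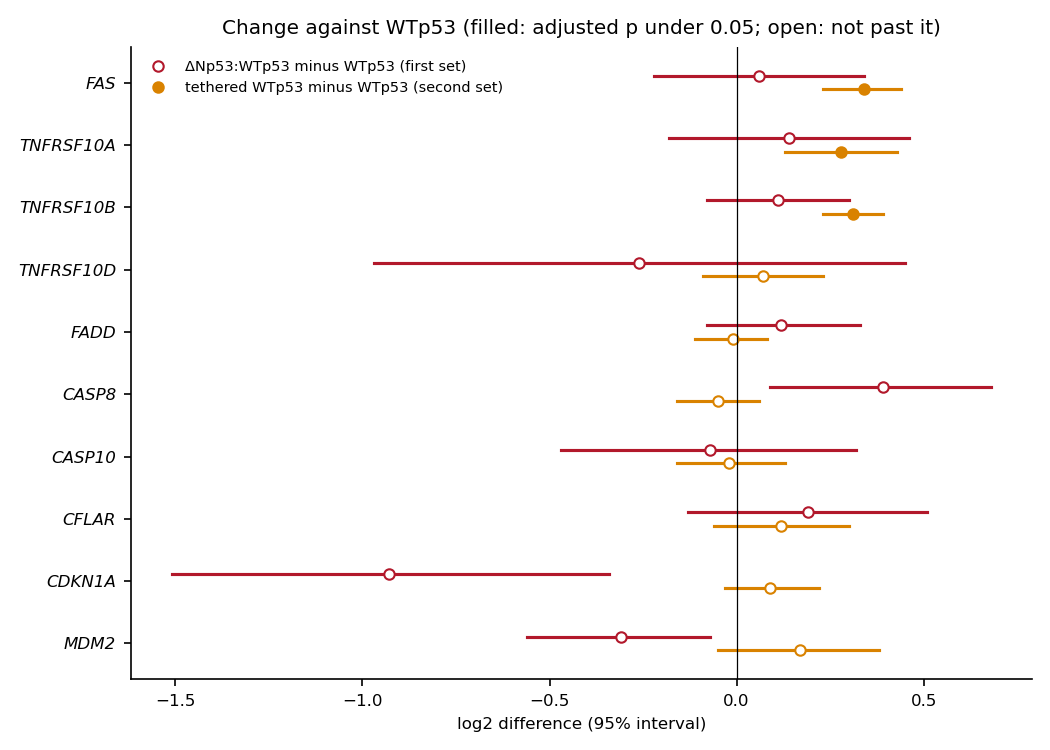
Difference from WTp53 in log2 units (horizontal axis) for each member and for CDKN1A and MDM2, for ΔNp53:WTp53 in the first set and tethered WTp53 in the second. Lines are 95% intervals and filled points passed an adjusted p of 0.05; FAS, TNFRSF10A and TNFRSF10B are filled for tethered WTp53 only, and CDKN1A and MDM2 lie left of 0 for ΔNp53:WTp53 without passing.

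Whether the step from WTp53 to ΔNp53:WTp53 differed from the step to tethered WTp53 was put as a difference of these effects, in a fit of all 18 arrays. Limma called 0 of the 8 members, where 2.95% of all genes were called, and CASP8 was nearest with 0.44 ± 0.14 (interval 0.13 to 0.74, limma adjusted p = 0.117). With the experiment as a block CASP8 passed (limma adjusted p = 0.0177). For FAS the difference of effects was −0.28 ± 0.14 (limma adjusted p = 0.296), for TNFRSF10B −0.20 ± 0.09 (limma adjusted p = 0.243) and for TNFRSF10A −0.14 ± 0.17 (limma adjusted p = 0.718). That the 3 receptors passed with tethered WTp53 and not with ΔNp53:WTp53 does not by itself show a difference between the constructs. The change with WTp53 against vector differed between the sets for 3 of 8 members, where 12.5% of all genes were called, and these values stand in the closing section.

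CDKN1A and MDM2, the ubiquitin ligase that degrades p53, differed between ΔNp53:WTp53 and WTp53 by −0.93 ± 0.26 and −0.31 ± 0.11 and did not pass the test (limma adjusted p = 0.1 and 0.173). Over the same arrays the differences of the 4 receptors lay between −0.26 and 0.14. With tethered WTp53 against WTp53 CDKN1A differed by 0.09 ± 0.06 and MDM2 by 0.17 ± 0.10, and neither passed (limma adjusted p = 0.239 and 0.21).

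As a description, the levels of the receptors moved together over the 18 arrays once the mean of its set was subtracted from each value. Pearson's r was 0.98 for FAS with TNFRSF10B, 0.96 for FAS with TNFRSF10A, 0.93 for TNFRSF10A with TNFRSF10D and 0.94 for TNFRSF10A with CFLAR. The 4 TRAIL receptor genes are neighbours on chromosome 8 and CFLAR, CASP10 and CASP8 are neighbours on chromosome 2, while FAS is on chromosome 10 and FADD on chromosome 11. CASP8 ran the other way, with r of −0.88 to TNFRSF10D and −0.70 to FAS. All 18 points share the split into p53 and vector arrays, which by itself gives large r to any gene that differs between them. On the same measure the genes most like FAS were PLCD1 (0.996) and DRAM1 (0.995), and those most like TNFRSF10A were TSPAN5 (0.993) and ELMO2 (0.993). SFRP4 (0.992) and TMEM63A (0.991) were most like TNFRSF10B. FAM27B (0.981) and GPR155 (0.980) were most like TNFRSF10D. Most like CFLAR were SEPTIN9 (0.973) and PGD (0.972), most like CASP8 were NFKBIA (0.962) and PATL1 (0.956), and most like FADD were H2AC25 (0.893) and ACTMAP (0.890).

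Of 51 other genes listed for the pathway 44 were measured. With ΔNp53:WTp53 13 of 44 rose and 11 fell against vector, where 15.7% of all genes rose and 20.3% fell. With WTp53 10 of 44 rose and 9 fell, where 15.2% and 16.6% of all genes did. With tethered WTp53 17 of 44 rose and 10 fell, where 21.6% and 26.2% of all genes did. With WTp53 of the second set 16 of 44 rose and 6 fell, where 17.9% and 18.9% of all genes did. These shares are given as a description, and no difference between the list and other genes was tested. The median change of the 44 genes lay between −0.01 and 0.07 in these 4 comparisons, near that of all genes. Of the 5 death ligands measured, limma called 0 in all 6 comparisons, and at most 1 in a comparison had an unadjusted p under 0.05. Their group means ran from 2.94 to 4.55 in experiments 0, 4 and 5, below every array median there. For experiments d, e and f they ran from 5.02 to 6.68, again below every array median. As with CASP10, a change may not be visible at a low signal, so these tests do not show that the ligands were unresponsive. FASLG, the ligand of FAS, differed from vector by 0.22 ± 0.11 with ΔNp53:WTp53 (limma adjusted p = 0.142) and by 0.13 ± 0.11 with WTp53 (limma adjusted p = 0.393). TNFSF10, which encodes TRAIL, differed by −0.07 ± 0.15 with ΔNp53:WTp53 (limma adjusted p = 0.78) and −0.18 ± 0.15 with WTp53 (limma adjusted p = 0.428). In the second set TNFSF10 averaged 5.52 ± 0.92 with tethered WTp53 and 5.02 ± 0.08 with vector (SD, n = 3 each). The differences within experiments d, e and f were −0.07, 0.00 and 1.57, so the spread came from the tethered array of experiment f.

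Downstream of the initiator caspases, CASP6, an effector caspase, rose in all 4 comparisons with vector and more than any member. It averaged 8.60 ± 0.25 with ΔNp53:WTp53, 8.28 ± 0.16 with WTp53 and 5.97 ± 0.03 with vector (SD, n = 3 each), a rise of 2.63 ± 0.13 (6.2-fold, limma adjusted p = 4.13e-06) with ΔNp53:WTp53 and of 2.31 ± 0.13 (4.96-fold, limma adjusted p = 5.88e-06) with WTp53. The rise in the second set was 2.17 ± 0.07 with tethered WTp53 (4.49-fold, limma adjusted p = 2.15e-09) and 1.67 ± 0.07 with WTp53 (3.17-fold, limma adjusted p = 3.49e-08). BID, the BCL2-family substrate of caspase 8, was 1.23 ± 0.15 higher with WTp53 than with vector in the first set (limma adjusted p = 2.76e-04). LMNA, the nuclear lamina protein that caspase 6 cleaves, rose by 0.59 ± 0.04 with WTp53 in the second set (limma adjusted p = 1.02e-06). In the first set LMNA rose by 0.79 ± 0.15 with ΔNp53:WTp53 (limma adjusted p = 0.00213) and 0.74 ± 0.15 with WTp53 (limma adjusted p = 0.00353). Of the 6 measured substrates and effectors 3 rose and 1 fell with ΔNp53:WTp53, and 3 rose and 0 fell with WTp53, against the shares of all genes just given. In the second set 4 rose and 1 fell with tethered WTp53 and likewise with WTp53. The gene that fell was PARP1, a DNA repair enzyme that effector caspases cleave. It fell by 0.40 ± 0.12 with ΔNp53:WTp53 (limma adjusted p = 0.03), by 0.68 ± 0.04 with tethered WTp53 (limma adjusted p = 1.17e-07) and by 0.27 ± 0.04 with WTp53 in the second set (limma adjusted p = 2.46e-04), the first and last of these named after their values were seen.

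Among proteins at the receptor complex, TNFAIP3, which trims ubiquitin chains and restrains NF-kappa-B signalling, fell in the first set. The fall was 1.53 ± 0.14 with ΔNp53:WTp53 (limma adjusted p = 5.59e-05) and 1.47 ± 0.14 with WTp53 (limma adjusted p = 7.74e-05). With WTp53 in the second set TNFAIP3 differed from vector by −0.68 ± 0.08 (limma adjusted p = 4.82e-05). PIDD1, a death-domain protein that activates caspase 2, rose by 1.34 ± 0.05 with tethered WTp53 (limma adjusted p = 6.73e-09) and 0.98 ± 0.05 with WTp53 in the second set (limma adjusted p = 1.47e-07). In the first set PIDD1 rose by 1.62 ± 0.20 with ΔNp53:WTp53 (limma adjusted p = 2.71e-04) and 1.45 ± 0.20 with WTp53 (limma adjusted p = 5.18e-04). DEDD2, which carries a death effector domain like those of FADD and caspase 8, rose by 0.91 ± 0.09 with ΔNp53:WTp53 (limma adjusted p = 7.96e-05) and by 0.96 ± 0.05 with tethered WTp53 (limma adjusted p = 3.33e-08). With WTp53 alone DEDD2 rose by 0.72 ± 0.09 in the first set (limma adjusted p = 3.04e-04) and 0.65 ± 0.05 in the second (limma adjusted p = 1.28e-06). ARAP1, an adaptor with GTPase-activating domains, rose by 1.03 ± 0.08 with WTp53 in the first set (limma adjusted p = 3.52e-05). It rose there by 0.69 ± 0.08 with ΔNp53:WTp53 (limma adjusted p = 2.27e-04), and by 0.19 ± 0.05 with WTp53 in the second set (limma adjusted p = 0.00626). NGFR, a neurotrophin receptor of the same superfamily, rose by 1.85 ± 0.21 with ΔNp53:WTp53 (limma adjusted p = 1.45e-04).

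Against WTp53, 1 of the 44 genes rose and 1 fell with ΔNp53:WTp53, where 1.56% and 0.88% of all genes did. TNFRSF1A, the main TNF receptor, averaged 8.60 ± 0.13 with ΔNp53:WTp53 and 7.94 ± 0.03 with WTp53 (SD, n = 3 each), a rise of 0.66 ± 0.09 (1.58-fold, limma adjusted p = 0.00988). PEA15, a death effector domain protein that can bind FADD and caspase 8, averaged 9.20 ± 0.07 with ΔNp53:WTp53 and 9.58 ± 0.03 with WTp53, a change of −0.38 ± 0.08 (1.3-fold lower, limma adjusted p = 0.0318). With tethered WTp53 against WTp53 10 of the 44 rose and 9 fell, where 14.9% and 17.5% of all genes did. CASP6 was higher by 0.50 ± 0.07 (limma adjusted p = 4.18e-04) and PIDD1 by 0.35 ± 0.05 (limma adjusted p = 4.97e-04). PARP1 differed by −0.42 ± 0.04 (limma adjusted p = 4.64e-05), and CUL3, the scaffold of a ubiquitin ligase that modifies caspase 8, by −0.39 ± 0.04 (limma adjusted p = 1.28e-04).

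**Figure D5:**
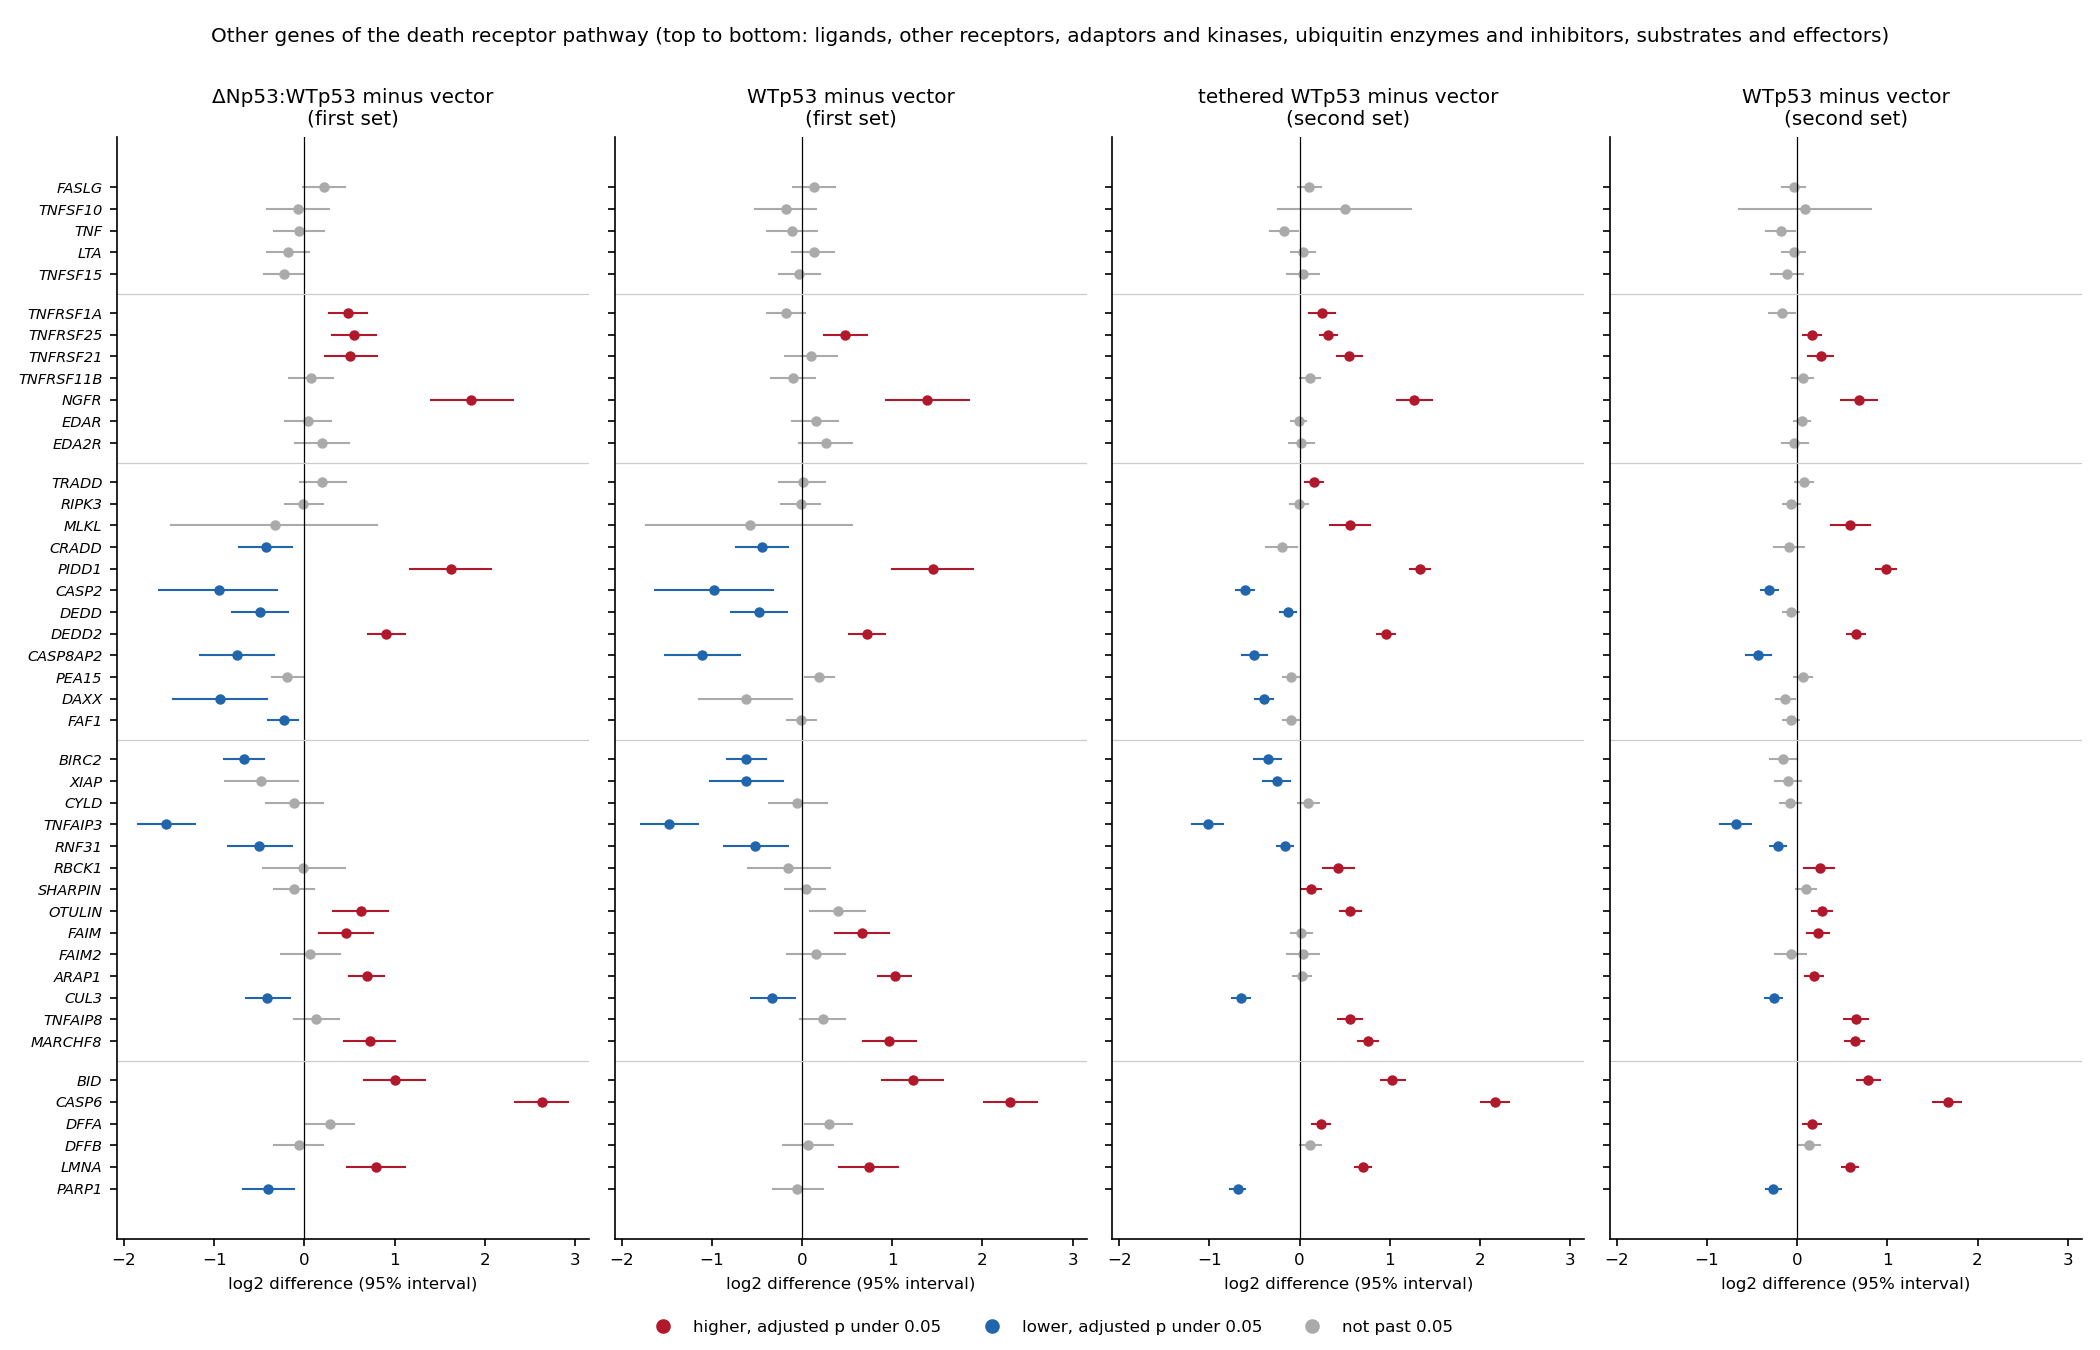
Difference from empty vector in log2 units (horizontal axis) of the 44 other measured pathway genes (rows, grouped by role), in 4 panels for ΔNp53:WTp53 and WTp53 of the first set and tethered WTp53 and WTp53 of the second. Red and blue points passed an adjusted p of 0.05 upward and downward, grey ones did not, and lines are 95% intervals; the 5 ligands at the top are grey in every panel, and CASP6 lies farthest right in each.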

How the data were processed

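Total RNA of sorted fluorescent cells was amplified, biotin labelled and hybridized to 18 arrays. The deposited values are log2 intensities that the authors made with RMA in Affymetrix Expression Console (background correction, quantile normalization, probe set summary), per the submitters' processing notes; versions are not given in the sources used here. RMA forces the arrays of a set to a common distribution, so differences are relative to the other genes of an array. The table holds 33297 probe sets, of which 19460 carry 1 gene symbol in the platform annotation, 1754 several and 12083 are not listed there. Probe sets with 1 symbol were used, and the one with the highest mean was taken for a gene with more, leaving 18417 genes. The current RefSeq gene table holds 18392 of their symbols, and 0 had to be updated. No filter on dim genes was applied, and precision is limited by how few arrays there are. In 0 pairs of arrays were most values identical.

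In R 4.3.3, limma 3.58.1 (lmFit and eBayes) was fitted to the 9 arrays of each set with a mean per group, since the sets were normalized apart and replicate spread differed: the median SD of a group was 0.104 to 0.151 in experiments 0, 4 and 5 and 0.049 to 0.069 in d, e and f. The 6 comparisons within sets are two-sided, with Benjamini-Hochberg adjustment over all genes. Differences of effects come from a fit of all 18 arrays, which pools the spread of both sets. An exact permutation test of 3 arrays against 3 cannot go below 0.1. Same-experiment residual correlations between groups were all above 0.1 in the first set (0.11 to 0.57, 9 of 9). They ran from −0.04 to 0.13 in the second (2 of 9 above 0.1). Between different experiments they ran from −0.50 to 0.35 in the first set (6 of 18 above 0.1). In the second they ran from −0.21 to 0.16 (1 of 18). Pairing by experiment is therefore clearer in the first set, although the ranges overlap. A block that changes a call there is given beside it.

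Other settings tried were all 18 arrays in 1 fit, only the 6 arrays compared, the experiment as a block, a trended robust prior, quantile normalization again, centring on the median, only genes above the median of all probe sets, the mean of a gene's probe sets, each array left out, experiment 0 left out and, for differences of effects, 1 variance per set; the other CFLAR probe set was added after seeing the data. Named are all members, CDKN1A and MDM2 as checks, FASLG and TNFSF10, per comparison the 4 listed pathway genes with the smallest p among those past the threshold, and per member the 2 genes with the highest r, of which those for CASP10 are not given. Members and lists were chosen with earlier results of these data known. For DEDD2, PIDD1, TNFAIP3, ARAP1, BID and LMNA some changes in further comparisons were added after they were seen. Values of the introduced gene itself are not reported here. Promoter windows come from RefSeq (GRCh38.p14), and none was printed for the genes on chromosome 8.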

Additional observations from a re-analysis of the deposited data

Results flagged for a closer look

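The rise or fall with WTp53 against vector was measured in both sets, and the difference of these effects (first set minus second, limma on all 18 arrays) passed for 3 members. FAS rose by 1.97 in the first set and 1.54 in the second, a difference of 0.43 ± 0.14 (limma adjusted p = 0.0464, and 0.0573 with the experiment as a block). TNFRSF10A rose by 1.48 in the first set and 0.66 in the second, a difference of 0.82 ± 0.17 (limma adjusted p = 0.00608). CASP8 changed by −0.67 in the first set and −0.21 in the second, a difference of −0.46 ± 0.14 (limma adjusted p = 0.047). TNFRSF10B (0.27 ± 0.09, limma adjusted p = 0.0509), TNFRSF10D (0.78 ± 0.36, limma adjusted p = 0.162, and 0.00406 with the block) and CFLAR (0.50 ± 0.17, limma adjusted p = 0.0706) had the sign of FAS without passing in the fit without a block. The difference passed in 22 of 22 alternatives for TNFRSF10A, in 7 of 22 for FAS and in 8 of 22 for CASP8. Leaving out any single array of the second set ended the calls of FAS and CASP8, with limma adjusted p from 0.0549 to 0.1. In the first set the call of FAS ended without WTp53 array 0, 4 or 5 or vector array 4 or 5, and that of CASP8 without ΔNp53:WTp53 array 4, WTp53 array 4 or 5 or vector array 0 or 5, with limma adjusted p from 0.0504 to 0.11. CDKN1A rose by 4.62 in the first set and 3.13 in the second. The sets differ in array median, normalization and replicate spread, and set and effect cannot be told apart.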

How the results depend on the processing

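The rises of FAS, TNFRSF10A, TNFRSF10B and TNFRSF10D against vector passed in all 18 alternatives of the first set and all 17 of the second. For ΔNp53:WTp53 against WTp53 1 member passed with all 18 arrays in 1 fit, with the experiment as a replicate block and without experiment 0 (CASP8 each time), and the genes called numbered 2693, 806 and 2461; the 6 arrays alone gave 96, and single arrays left out gave 54 to 2292. In the same comparison leaving out arrays moved TNFRSF10D between −0.50 and 0.12 and CASP10 between −0.17 and 0.09. With all 18 arrays in 1 fit, genes called fell to 3603 for WTp53 against vector in the second set and to 1855 for tethered WTp53 against WTp53. For that last contrast FADD was 0.04 after another quantile normalization and −0.03 to 0.01 without single arrays, CASP10 −0.03 to 0.02, and CFLAR −0.25 as the mean of its probe sets (limma adjusted p = 0.0114). The other CFLAR probe set turned the sign to −0.23 (ΔNp53:WTp53) and −0.15 (WTp53) against vector and −0.08 between them, and in the second set to −0.13 (tethered WTp53 against vector) and −0.63 (against WTp53). For the difference of construct effects 1 member passed with the replicate block and 0 to 1 without single arrays, with ranges of −0.57 to 0.05 for TNFRSF10D, −0.15 to 0.11 for CASP10 and −0.03 to 0.23 for CFLAR. For the difference of WTp53 effects 1 to 6 members passed without single arrays, CASP10 ran from −0.03 to 0.23, and CFLAR was −0.07 as the mean of its probe sets. There the replicate block ended the call of FAS and added TNFRSF10D, as given above; it changed no call of a member other than these and those of CASP8 given in the report. The cause of these shifts was not tested. Signal over background was not derived.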

Other observations

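TNFRSF1A, the main TNF receptor, was higher with ΔNp53:WTp53 and with tethered WTp53 than with WTp53, and did not pass the test with WTp53 against vector. It was 0.66 ± 0.09 higher with ΔNp53:WTp53 than with WTp53 (limma adjusted p = 0.00988) and 0.42 ± 0.07 higher with tethered WTp53 than with WTp53 (limma adjusted p = 8.42e-04). With WTp53 against vector it differed by −0.18 ± 0.09 in the first set (limma adjusted p = 0.189) and −0.17 ± 0.07 in the second (limma adjusted p = 0.0711). The value with tethered WTp53 lies outside the rule for named genes and was chosen after it was seen. NGFR rose with WTp53 in both sets, by 1.39 ± 0.21 (limma adjusted p = 7.20e-04) and 0.69 ± 0.09 (limma adjusted p = 1.05e-04). It was 0.58 ± 0.09 higher with tethered WTp53 than with WTp53 (limma adjusted p = 6.90e-04). These values of NGFR were also chosen after they were seen.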
